A study of Rattus norvegicus with 4 samples.

Results

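Stat3 and 9 genes of acute phase plasma proteins were examined in rat liver after ANIT (alpha-naphthylisothiocyanate), which damages the cells lining bile ducts and blocks bile flow. They were Lbp, Orm1, Fgg, C3, Serping1, A2m, Serpina3n, Serpina3c and Pla2g2a. The genes were taken by symbol from the platform's annotation, and these 10 of the 958 named genes on the array were read by 17 spots. The animals were male Sprague-Dawley rats weighing between 250 and 300 g. ANIT was dissolved in olive oil and injected into the peritoneum at 75 mg/kg, and the controls had an equal volume of oil. Both treatments had 3 rats, killed 12 h later, and RNA from 1 liver lobe, the right lateral, was pooled over the rats of a treatment. Both mixed RNAs were hybridised together on each of 4 spotted cDNA arrays, with ANIT RNA in Cy5 on arrays 1 and 3 and in Cy3 on arrays 2 and 4. The arrays form 1 group of repeated hybridisations. No label says that they held RNA of different animals, so the p-values below measure the spread between hybridisations of mixed RNA, not between rats.

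The deposited value of a spot is 1 log ratio per array, and neither its base nor its direction is given in the sources used here. Sizes are therefore in log units, and a value is called positive or negative, never raised or lowered by ANIT. Gene spots had medians of -0.77, 0.32, -0.72 and 0.30 on arrays 1 to 4. Each array was centred on that median, so that 0 is the median gene spot. Across gene spots (not replicates of each other), Pearson's r was 0.955 and 0.948 between arrays with the same dye assignment and lay between -0.907 and -0.88 for arrays with swapped dyes. The direction is for that reason not settled, and both readings are given for each of the 10 genes and for the lists they belong to. The labels list ANIT RNA as channel 2 on every array, but do not say which channel the ratio is over. In the main reading all arrays hold the same treatment over the other, and a gene's difference is its mean over the 4 arrays with a dye effect removed. In the other reading each array holds the same dye over the other, and the sign of arrays 2 and 4 is turned before the mean is taken. The files hold no spot brightness, and how far a spot stood above background is not known. In whole-liver RNA, fewer cells of a type and less RNA per cell cannot be told apart.

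The acute phase response is the shift in plasma proteins that hepatocytes secrete when cytokines of the interleukin-6 and interleukin-1 families reach them. STAT3, activated by receptor-bound JAK kinases, binds the promoters of many of these genes, together with C/EBP factors and NF-kB. In the rat, alpha-2-macroglobulin, alpha-1-acid glycoprotein, fibrinogen and the protease inhibitors of the Serpina3 family are classical acute phase proteins, while transthyretin and transferrin are known to fall.

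Promoter windows in RefSeq on build GRCr8, from 250 bases before to 50 after a gene's start, were found for 6 of the 10 genes (Stat3, Orm1, Fgg, C3, Serpina3n and Pla2g2a). Shown here are 4 that hold the letters searched for, because they belong to genes on the positive side in the main reading and because STAT3 and C/EBP are the factors named above. Each is written 5′ to 3′ in the gene's own direction and ends before the gene's annotated span. They are Serpina3n at chr6:129088142-129088391 (plus strand), Fgg at chr2:170652833-170652928 (plus strand), C3 at chr9:2201340-2201589 (minus strand) and Orm1 at chr5:81788259-81788508 (plus strand). Capitals mark TTCNNNGAA, the STAT pattern, and CTGGGAA, the interleukin-6 response element, in Serpina3n, Fgg and C3, and TTNNGNAA, the C/EBP pattern, in Orm1, where the first match lies on the strand shown and the second on the opposite strand.
Serpina3n: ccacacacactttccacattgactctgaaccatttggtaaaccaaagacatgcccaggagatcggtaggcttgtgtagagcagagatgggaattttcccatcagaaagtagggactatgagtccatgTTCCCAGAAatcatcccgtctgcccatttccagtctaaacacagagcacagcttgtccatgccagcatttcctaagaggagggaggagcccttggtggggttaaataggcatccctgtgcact
Fgg: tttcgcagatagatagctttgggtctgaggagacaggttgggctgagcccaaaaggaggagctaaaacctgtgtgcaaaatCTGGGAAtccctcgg
C3: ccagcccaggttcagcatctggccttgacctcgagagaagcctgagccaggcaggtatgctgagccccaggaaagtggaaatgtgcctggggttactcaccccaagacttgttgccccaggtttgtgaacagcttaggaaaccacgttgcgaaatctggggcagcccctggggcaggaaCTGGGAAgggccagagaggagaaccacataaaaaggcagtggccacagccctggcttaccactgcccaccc
Orm1: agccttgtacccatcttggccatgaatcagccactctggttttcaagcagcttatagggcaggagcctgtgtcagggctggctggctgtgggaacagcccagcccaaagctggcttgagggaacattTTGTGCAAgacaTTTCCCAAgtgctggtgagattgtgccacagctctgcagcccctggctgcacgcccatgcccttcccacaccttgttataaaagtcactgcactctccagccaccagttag

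On both strands, TTCNNNGAA was found in 1 of the 6 windows, Serpina3n, and in 8.87% of all 33469 promoter windows. CTGGGAA was found in 3 of the 6, Serpina3n, Fgg and C3, and in 11.3% of all windows. In Serpina3n it lies on the opposite strand and overlaps the STAT pattern. The annotated span of Fgg begins before the start from which its window is counted, so the printed part of Fgg is shorter, and a further CTGGGAA of that window, inside the span, is not printed. TTNNGNAA was found in 4 of the 6 (Orm1, Pla2g2a, Serpina3n and C3) and in 41.3% of all windows. The window of Stat3 held none of the 3 patterns. A match describes the letters of a window and not a site in use.

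In the main reading some of these genes lay above and some below the median gene spot. Serpina3n, a serine protease inhibitor, changed on the positive side at 0.20 ± 0.043 log units (SE, n = 4 arrays), and Pla2g2a, a secreted phospholipase that attacks bacterial membranes, on the negative side at -0.27 ± 0.040. The adjusted p over all 1174 features in limma was 0.0425 for Serpina3n and 0.00794 for Pla2g2a. The other 8 genes did not pass, with Orm1, C3, A2m, Fgg and Serpina3c between 0.11 and 0.17 and Stat3, Lbp and Serping1 between -0.17 and -0.100. Thus 2 of 10 genes passed, against 3.92% of all features (1.62% positive, 2.3% negative). At an unadjusted p under 0.05, 10 of 10 passed, against 16.9% of features. The genes were put together with such results known, so neither count supports anything about them as a group. The position of 0 matters: as deposited, the mean of the 4 arrays was negative for all 10.

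**Figure D1:**
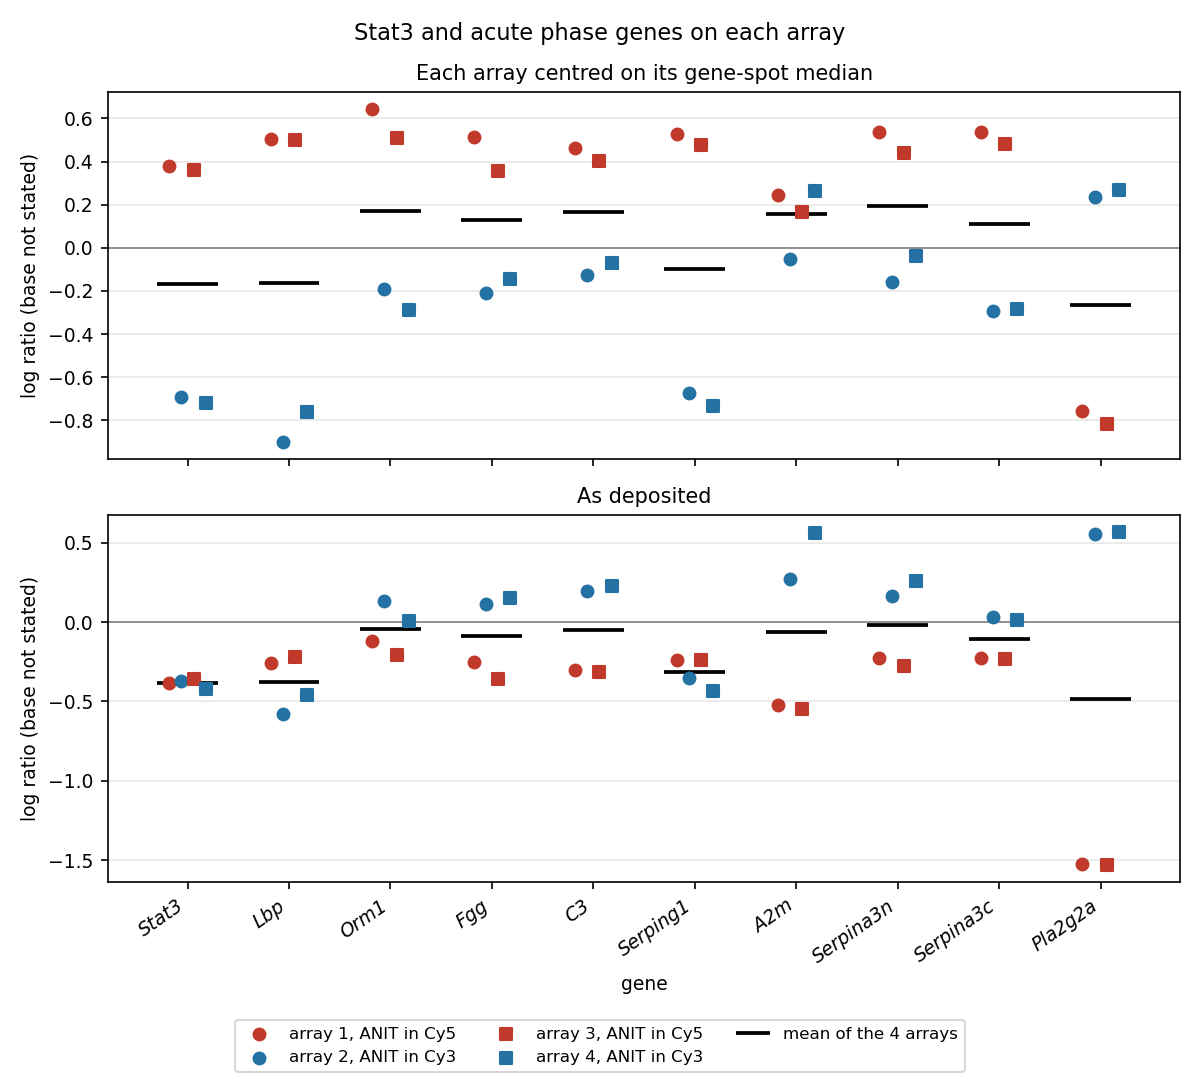
Log ratio (base not stated) of Stat3 and 9 acute phase genes on each array, centred on the gene-spot median (top) and as deposited (bottom); red marks ANIT RNA in Cy5, blue in Cy3, circles arrays 1 and 2, squares arrays 3 and 4, and black bars the mean of the 4 arrays. After centring the red points lie above the blue ones in 8 genes and below them in Pla2g2a, while as deposited Stat3 has all 4 arrays between -0.42 and -0.36.

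Stat3 encodes the transcription factor through which interleukin-6 acts on hepatocytes. Its centred values were 0.38, -0.69, 0.36 and -0.72 on arrays 1 to 4. Arrays 1 and 3 were high and arrays 2 and 4 low, so the dye orientations lay on opposite sides of the median gene. As deposited the same values read -0.39, -0.37, -0.36 and -0.42. In that form the orientations overlapped and no array stood apart. The difference was -0.17 ± 0.039 after centring (limma, adjusted p = 0.0544) and -0.38 ± 0.035 as deposited (adjusted p = 0.000886). Centring shifts the mean of every feature by the same amount, so the rank is fixed, with 3.15% of features below Stat3 in either form. Stat3 passed on the negative side with robust eBayes (adjusted p = 0.0457) and with a variance trend (0.0268), at the same difference. In limma it did not pass with equal spread on each array (adjusted p = 0.0682) or with print blocks centred (0.0592). Nor did it pass with centring on spots with 1 symbol (0.0543) or without a dye effect. With 1 array left out its difference lay between -0.18 and -0.16.

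Both spots of Stat3 were negative, at -0.19 ± 0.047 and -0.14 ± 0.046. Taken on their own, the first passed in limma (adjusted p = 0.0350) and the second did not (0.112). With arrays 2 and 4 turned, Stat3 stood at 0.54 ± 0.039 after centring (limma, adjusted p = 2.01e-06) and at 0.012 ± 0.035 as deposited (adjusted p = 0.766). In that reading the difference of Stat3 was near 0 until the arrays were centred. The genes closest to Stat3, by Euclidean distance over the 4 centred values among the 957 other named genes, were Acsl1, an acyl-CoA synthetase, at 0.065, Cib1, a calcium-binding protein, at 0.097 and Rpl6, a ribosomal protein, at 0.11, where the median distance was 1.25. Of the acute phase genes, Serping1 came 21st in that order and Lbp 62nd, and the others between 247th and 754th. Over all features the turned mean had an SD of 0.45 and the mean of the arrays one of 0.099, so the distances are made up mainly of the alternation between arrays 1 and 3 and arrays 2 and 4, whichever reading holds.

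Lbp encodes the plasma protein that hands bacterial lipopolysaccharide to CD14, and was read by 1 spot. Its centred values were 0.51, -0.90, 0.50 and -0.76 on arrays 1 to 4. As deposited they were -0.26, -0.58, -0.22 and -0.46. The deposited values were negative on every array, yet lower on arrays 2 and 4 than on arrays 1 and 3. The difference was -0.16 ± 0.043 (limma, adjusted p = 0.0788). It passed with a variance trend, at the same difference, and lay between -0.20 and -0.13 with 1 array left out. With arrays 2 and 4 turned it was 0.67 ± 0.043 (adjusted p = 1.35e-06), the highest of the 10 genes, with 98.9% of all features below it.

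Orm1 encodes alpha-1-acid glycoprotein, a plasma carrier of drugs, and was also read by 1 spot. Its centred values were 0.65, -0.19, 0.51 and -0.29 on arrays 1 to 4, and as deposited -0.12, 0.13, -0.20 and 0.0083. Arrays 1 and 3 were the higher after centring and the lower as deposited, and in neither form did the orientations overlap. The difference was 0.17 ± 0.044 (limma, adjusted p = 0.0788). It passed without array 4, at 0.19 (adjusted p = 0.0419), and with equal spread on each array. As deposited it was -0.047 ± 0.040. Turned, it was 0.41 ± 0.044 after centring (adjusted p = 1.82e-05) and -0.12 ± 0.040 as deposited (adjusted p = 0.0311).

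Fgg encodes the gamma chain of fibrinogen, the clotting protein of plasma. The mean of its 2 spots was 0.51, -0.21, 0.36 and -0.15 after centring and -0.25, 0.11, -0.36 and 0.15 as deposited. The orientations did not overlap in either form, and changed places between them. The difference was 0.13 ± 0.044 (limma, adjusted p = 0.165), with its spots at 0.15 and 0.11. Fgg passed in none of the alternatives that kept the main reading. It ranged from 0.090, without array 1, to 0.17, without array 3. Turned, Fgg was 0.31 ± 0.044 after centring (adjusted p = 0.000132) and -0.22 ± 0.038 as deposited (limma, adjusted p = 0.00121).

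C3, the central complement protein, stood close to Fgg on every array. Its 2 spots averaged 0.46, -0.13, 0.40 and -0.071 after centring and -0.30, 0.19, -0.31 and 0.23 as deposited. The difference was 0.17 ± 0.040 (limma, adjusted p = 0.0665), with spots at 0.17 and 0.16. With print blocks centred C3 passed at 0.20 (adjusted p = 0.0403), and with equal spread on each array at 0.17 (adjusted p = 0.0480). Serping1, the inhibitor of complement C1 and of plasma kallikrein, lay on the other side. Its 1 spot gave 0.53, -0.67, 0.48 and -0.73 after centring and -0.24, -0.35, -0.24 and -0.43 as deposited. Arrays 1 and 3 of Serping1 were close to those of C3, whereas arrays 2 and 4 were far lower. The difference of Serping1 was -0.100 ± 0.040 (limma, adjusted p = 0.250), the smallest of the 10 in size. In the main reading C3 and Serping1 thus lay on opposite sides of the median gene without either passing. Turned, both were positive and passed, C3 at 0.27 ± 0.040 (adjusted p = 0.000193) and Serping1 at 0.60 ± 0.040 (limma, adjusted p = 1.51e-06). Turned and as deposited they were -0.26 (adjusted p = 0.000299) and 0.077 (adjusted p = 0.0859), so C3 changed sign with the centring.

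A2m encodes alpha-2-macroglobulin, which traps proteases of many kinds, and its residual SD around the dye effect, 0.16, was the largest of the 10 genes. Its 1 spot gave 0.24, -0.053, 0.16 and 0.26 after centring, and -0.52, 0.27, -0.55 and 0.56 as deposited. Array 4 was the highest and array 2 the lowest after centring, so arrays of 1 orientation lay at both ends. The difference was 0.15 ± 0.055 (limma, adjusted p = 0.185). It rested on single arrays, at 0.23 (adjusted p = 0.00563) without array 2 and 0.076 (adjusted p = 0.700) without array 4. In such a fit the remaining array of an orientation is assumed to vary like other features. A2m was the 1 gene of the 10 that did not pass with arrays 2 and 4 turned, at 0.050 ± 0.055 (adjusted p = 0.413).

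Serpina3n and Serpina3c encode serine protease inhibitors of 1 rat gene family, and cDNA spots of close family members can bind each other's transcripts, so their values may not be separate. Serpina3n had means of 0.54, -0.16, 0.44 and -0.039 over its 2 spots after centring, and -0.23, 0.16, -0.28 and 0.26 as deposited. Serpina3c had means of 0.54, -0.29, 0.48 and -0.28 over its 3 spots, and -0.23, 0.029, -0.23 and 0.014 as deposited. Arrays 1 and 3 were nearly the same in both genes, and Serpina3c was the lower on arrays 2 and 4. Serpina3n passed at 0.20, as given above, and Serpina3c did not, at 0.11 ± 0.040 (limma, adjusted p = 0.185). Turned, Serpina3n was 0.29 ± 0.043 (adjusted p = 0.000158) and Serpina3c 0.40 ± 0.040 (adjusted p = 1.08e-05) after centring, and -0.23 and -0.13 as deposited, where limma called both negative. The difference between the 2 genes was not tested.

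The spots of Serpina3n stood at 0.22 ± 0.046 and 0.17 ± 0.050, and only the first passed on its own in limma (adjusted p = 0.0117, against 0.0825). Its call ended without array 1 (0.17, adjusted p = 0.170), without array 3 (0.22, 0.0868) and without array 4 (0.17, 0.123), with print blocks centred (0.17, 0.117), with a variance trend and as deposited (-0.020, 0.621). The spots of Serpina3c lay between 0.080 and 0.15, all on the positive side. The genes closest to Serpina3n over the 4 centred values were C3 at a distance of 0.096, Vegfa, a growth factor of blood vessels, at 0.14 and Fgg at 0.15, where the median distance to named genes was 0.89. Orm1 and Serpina3c came 17th and 16th in that order. These distances too are made up mainly of that alternation.

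Pla2g2a had the largest difference of the 10 genes and was 19th by size among all features. Its 2 spots averaged -0.76, 0.24, -0.82 and 0.27 after centring and -1.52, 0.56, -1.53 and 0.57 as deposited. After centring, arrays 1 and 3 were the low ones here, whereas they were the high ones in the 8 genes other than A2m. As deposited they were also the low ones in Orm1, Fgg, C3, A2m, Serpina3n and Serpina3c. Both spots passed on their own in limma, at -0.30 ± 0.046 (adjusted p = 0.00181) and -0.23 ± 0.046 (adjusted p = 0.00990). The difference kept its side without each array in turn, between -0.28 and -0.25. It passed in every other alternative run on the main reading apart from the fit without a dye effect. With arrays 2 and 4 turned it stayed negative, at -0.52 ± 0.040 (adjusted p = 2.35e-06). The 288 control spots of the arrays had centred medians of -0.60, 0.57, -0.59 and 0.71, which is the same alternation between dyes as in Pla2g2a. Their part in its value was not tested. As a fold, its difference would be 1.2 for a logarithm of base 2, 1.31 for a natural one and 1.85 for base 10. That of Serpina3n would be 1.15, 1.22 or 1.57.

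**Figure D2:**
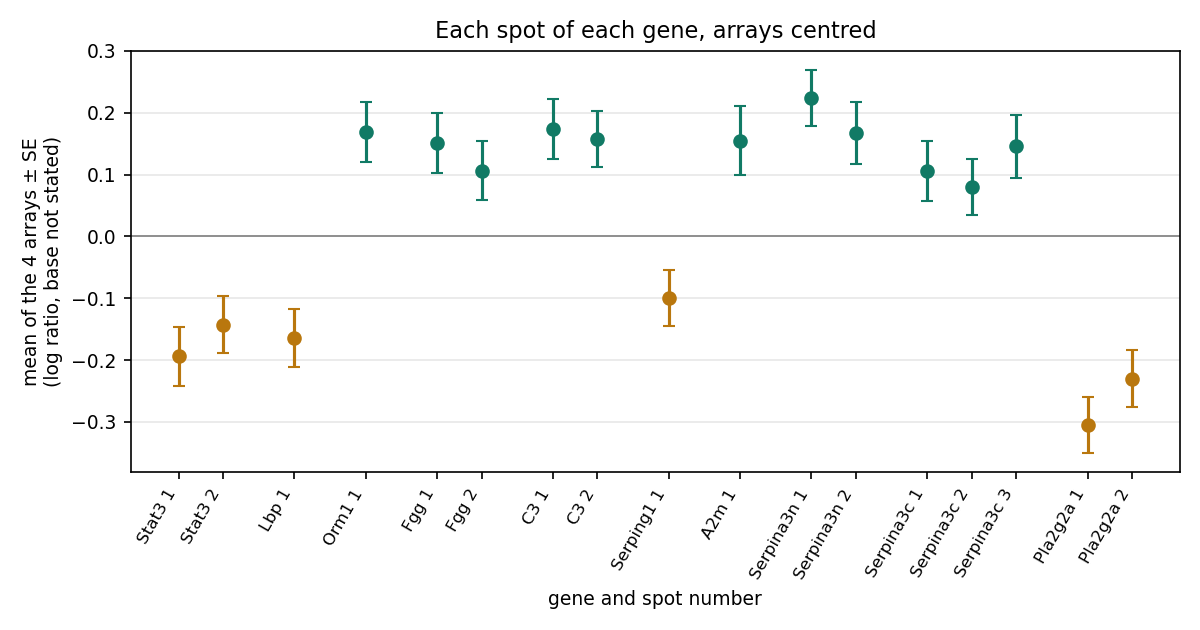
Mean of the 4 centred arrays with its SE (log ratio, base not stated) for each of the 17 spots of Stat3 and the 9 acute phase genes; green is positive and ochre negative. In each of the 6 genes with several spots, all spots lie on the same side of 0.

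In each of the 6 genes read by more than 1 spot, the spots lay on the same side. Over all genes with several spots, the SD between spots of the same gene was 0.080 for the mean of the arrays and 0.39 for the turned mean. The Stat3 spots differed by more in the turned mean, at 0.66 and 0.41, than those of C3, at 0.24 and 0.30. The spots of Pla2g2a were at -0.49 and -0.55.

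A difference between genes on the same array does not depend on where 0 is put. Serpina3n minus Stat3 was 0.16, 0.53, 0.079 and 0.68 on arrays 1 to 4. Serpina3c minus Stat3 was 0.16, 0.40, 0.12 and 0.44, and Orm1 minus Lbp was 0.14, 0.71, 0.013 and 0.47. These 3 differences were above 0 on every array, and much larger on arrays 2 and 4 than on arrays 1 and 3. Of the 24 pairs of a positive and a negative gene, 7 were above 0 on all 4 arrays, 4 of them with Stat3 as the negative gene. Against Pla2g2a the sign followed the dye in all 6 pairs, as in Serpina3n minus Pla2g2a at 1.30, -0.39, 1.26 and -0.31. The sides were chosen on these values, so the pairs are given without a test.

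**Figure D3:**
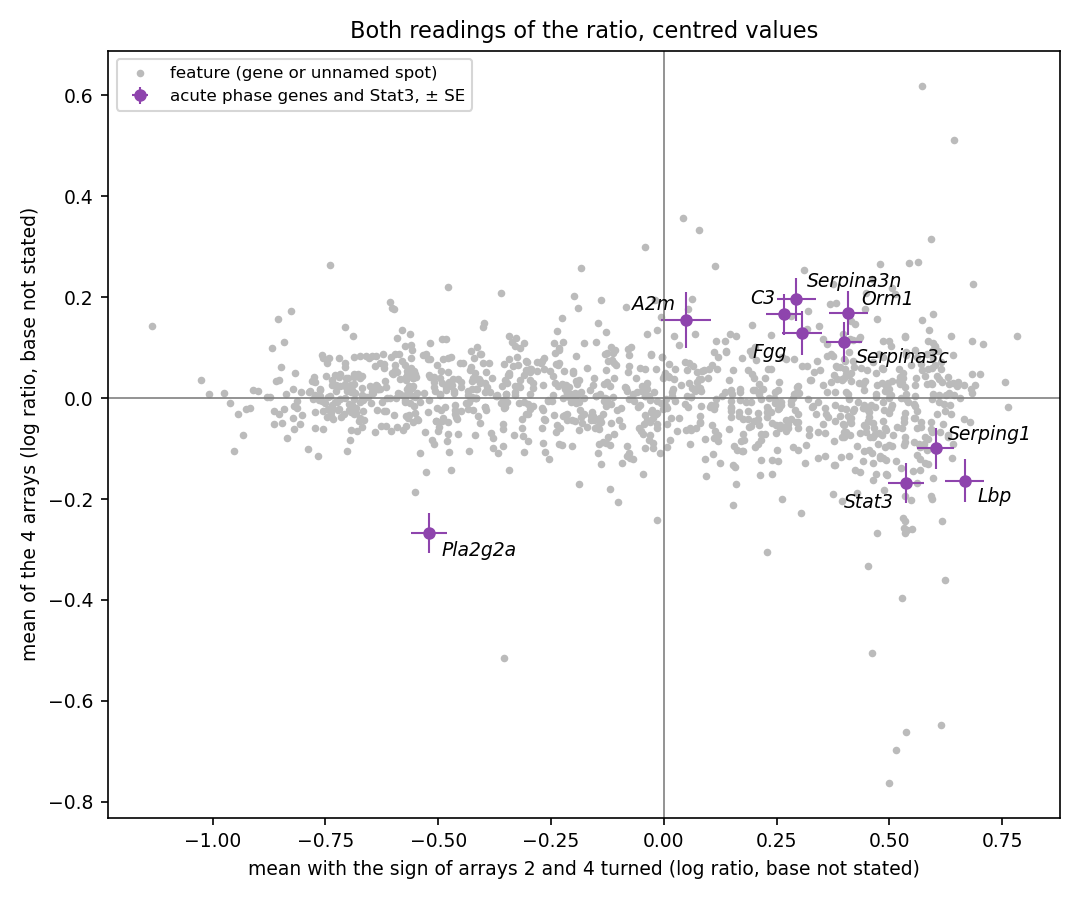
Mean of the 4 centred arrays (vertical) against the mean with the sign of arrays 2 and 4 turned (horizontal), both in log ratio units of unstated base, for 1174 features (grey) and for Stat3 and the 9 acute phase genes (purple, ± SE). Stat3, Lbp and Serping1 lie at the lower right, from 0.54 to 0.67 on the horizontal axis, Pla2g2a lies at the lower left, and A2m is near 0 horizontally.

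With arrays 2 and 4 turned, 9 of the 10 genes were positive and 8 of those passed in limma, as did Pla2g2a on the negative side. That makes 9 of 10 called, against 86.5% of all features (40.6% positive, 45.8% negative). The share is near the background and shows nothing particular to these genes. After centring, 8 genes were positive on arrays 1 and 3 and negative on arrays 2 and 4, a pattern of 39.3% of features, and Pla2g2a had the reverse, as did 45.2%. None of the 10 lay on 1 side on all 4 centred arrays, a pattern of 2.81% of features. Without a dye effect in the main reading limma passed 0 of the 10 and 0% of features, and at an unadjusted p under 0.05 also 0 of the 10 and 0.426% of features.

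As deposited, Stat3, Lbp, Serping1, Serpina3c and Pla2g2a passed in limma on the negative side and 0 genes on the positive, together 5 of 10 against 90.4% of features (90% negative, 0.341% positive). The median difference of all features was there -0.21, so a negative value as deposited is the usual one. Stat3, Lbp and Serping1 were negative on all 4 deposited arrays, as were 22.5% of features. With arrays 2 and 4 turned and no centring, 8 of the 10 passed, 1 positive (Lbp at 0.14) and 7 negative, against 80.9% of features (2.81% positive, 78.1% negative).

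In the wider list of proteins known to rise in the acute phase, 17 of 47 genes were measured, the 9 above among them. In limma 1 changed on the positive side, Serpina3n, and 3 on the negative, Pla2g2a, Mt1 and Cp, where 1.62% and 2.3% of all features did. Mt1, the metal-binding metallothionein 1, stood at -0.70 ± 0.041 (adjusted p = 4.42e-05) and was negative on all 4 centred arrays. Cp, the copper carrier ceruloplasmin, stood at -0.27 ± 0.043 (adjusted p = 0.00960), with centred values of 0.26, -0.73, 0.28 and -0.88. Of the 2 spots of Cp, 1 did not pass on its own, at -0.16 (limma, adjusted p = 0.122), and 1 did, at -0.37 (adjusted p = 0.000398). The 13 others did not pass, among them the pentraxin Crp at -0.047 ± 0.044 and the antitrypsin gene Serpina1 at 0.046 ± 0.040. The list's median was -0.019, against 0.0042 over all features, and 11 of the 17 had an unadjusted p under 0.05, against 16.9% of features. All 9 of the genes above were among these 11 and were put together with such results known. Neither this count nor that of the calls therefore supports anything about the list. Of the 8 other genes, 2 passed the adjusted threshold, Mt1 and Cp, and the median of the 8 was -0.038. Turned, 11 of the 17 passed as positive and 5 as negative, against 40.6% and 45.8% of features, with Mt1 at 0.52 and Cp at 0.53.

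Of 16 genes of plasma proteins and other liver genes known to fall in the acute phase, 8 were measured. The thyroid hormone carrier Ttr, at 0.23 ± 0.043 (limma, adjusted p = 0.0199), and the iron carrier Tf, at 0.19 ± 0.040 (adjusted p = 0.0368), changed on the positive side, the side of Serpina3n. Their centred values were 0.63, -0.22, 0.58 and -0.079 for Ttr and 0.60, -0.22, 0.54 and -0.17 for Tf. Serpina3n alternated between the dyes in the same way as both. As deposited Ttr stood at 0.011 and Tf at -0.028, and neither passed. The call of Tf ended without array 1, 3 or 4 and with a variance trend (adjusted p = 0.0690). That of Ttr ended without array 1 or 3 (0.21, adjusted p = 0.0847, and 0.24, adjusted p = 0.0669) and with print blocks centred (0.19, adjusted p = 0.0623). Both calls also ended in the fit without a dye effect. The list's median was 0.060, with 5 genes above 0 and 3 below, and 3 of the 8 had an unadjusted p under 0.05, against 16.9% of features. Turned, 7 passed as positive, among them Ttr at 0.37 and Tf at 0.38, and 1 as negative, against 40.6% and 45.8% of features. Turned and as deposited, Ttr was -0.15 and Tf -0.14. In the main reading the calls on the positive side were Serpina3n, known to rise, and Ttr and Tf, known to fall. Calls on the negative side were Pla2g2a, Mt1 and Cp from the list of proteins known to rise, and 0 from this one. Whether either list followed an acute phase pattern was not tested.

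In the list of interleukin-6, STAT and NF-kB signalling, 18 of 56 genes were measured and 0 passed over all features in limma. The receptor subunits Il6r, at -0.047 ± 0.041, and Il6st, at -0.010 ± 0.041, and the kinase Jak2, at 0.020 ± 0.043, lay near the median gene. Il6st alternated more between the dyes than any of the 10 genes, at -1.01, 0.99, -0.94 and 0.92 on arrays 1 to 4. Stat3 was the second in size after the growth regulator Myc, at -0.21 ± 0.052 (adjusted p = 0.0715). The 2 spots of Myc stood apart, at -0.33 (limma, adjusted p = 0.00364) and -0.085 (adjusted p = 0.428). The cytokine gene Tnf stood at -0.13 ± 0.040 and the interferon-regulated factor Irf1 at 0.15 ± 0.050. In all, 13 of the 18 were below 0, with a median of -0.046, where 556 of the 1174 features were below 0. Turned, 8 of the 18 were above 0, with Myc at -0.10. There 6 passed as positive and 5 as negative, against 40.6% and 45.8% of features. Of 59 further complement, coagulation and protease inhibitor genes, 4 were measured and 0 passed, with the adhesion protein vitronectin, Vtn, the largest at -0.13 ± 0.040 (adjusted p = 0.144). At an unadjusted p under 0.05 there were 6 of 18 and 1 of 4 in these 2 lists, against 16.9% of features. Stat3, which was chosen with such results known, was among the 6. Turned, 1 of the 4 passed as positive, Vtn at 0.58, and 3 as negative, against the same 40.6% and 45.8%.

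**Figure D4:**
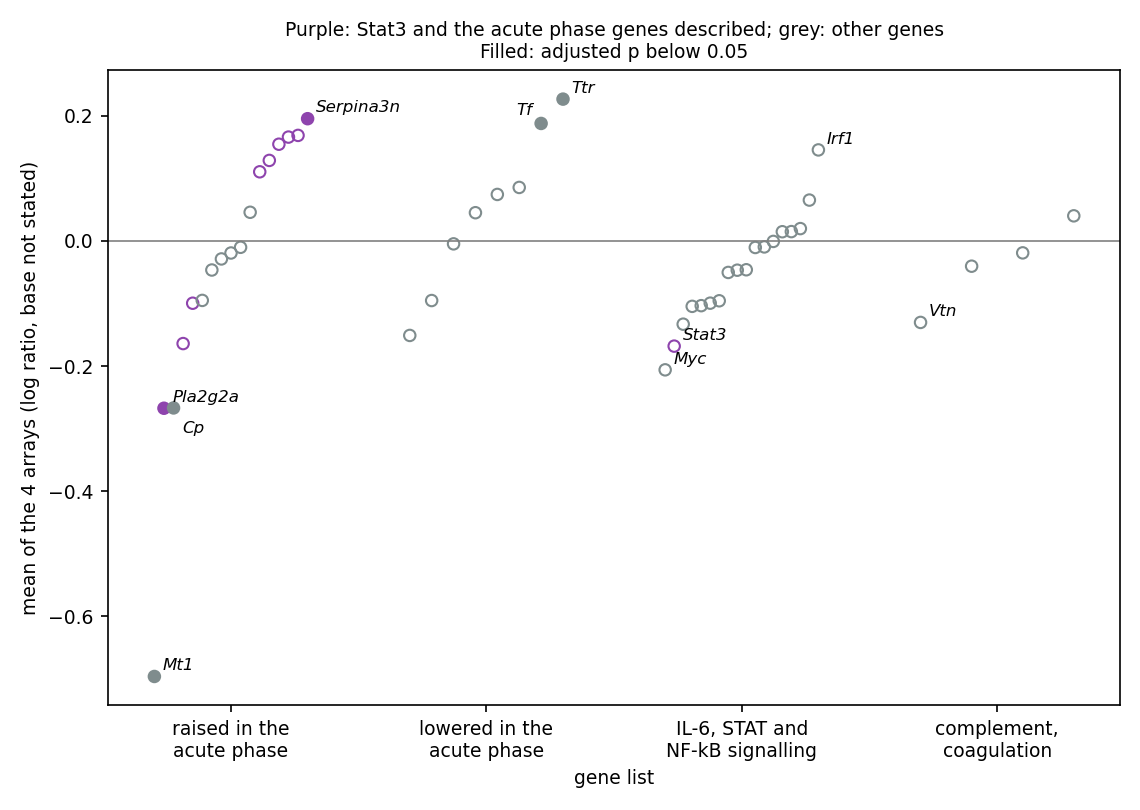
Mean of the 4 centred arrays (log ratio, base not stated) for the measured genes of 4 lists, sorted within a list; purple marks Stat3 and the 9 acute phase genes, grey other genes, and filled points an adjusted p below 0.05 in limma. Serpina3n, Ttr and Tf are the filled points above 0, and Mt1, Cp and Pla2g2a those below.

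Markers of other cell types did not pass in limma in the main reading. The measured ones were 4 of 16 for bile duct (between -0.065 for Cd24 and 0.017), 4 of 30 for myeloid and lymphoid cells (between -0.12 for Fcgr2b and 0.0003), 10 of 30 for endothelial, stellate and fibroblast cells (between -0.095 for Timp1 and 0.074), and Pf4 alone of 12 for erythroid cells and platelets (0.0098). Of 8 measured hepatocyte markers, 3 passed as positive and 1 as negative, against 1.62% and 2.3% of all features. The positive ones were Cyp1a2 and, already given above, Ttr and Tf, and the negative one was Uox at -0.26. Cyp1a2, a cytochrome P450, was the largest at 0.62 ± 0.040 (limma, adjusted p = 4.42e-05). Turned, most markers of other cell types passed on the negative side, where 45.8% of all features passed as negative and 40.6% as positive. There were 1 positive and 3 negative of 4 for bile duct (median -0.72), 1 and 3 of 4 for myeloid and lymphoid cells (-0.30), 2 and 7 of 10 for endothelial, stellate and fibroblast cells (-0.27), and Pf4 negative at -0.53. Hepatocyte markers were there 6 positive and 0 negative of 8 (median 0.38), the side of 9 of the 10 genes. Log ratios hold no level, so summed marker levels cannot be given and the liver label could not be set against them. The part of these cell types in the values above was not tested. In the main reading the control genes Hprt1, at -0.011 ± 0.039, and Actb, at 0.061 ± 0.051, did not pass. As deposited both passed in limma, Hprt1 at -0.23 (adjusted p = 0.00165) and Actb at -0.15 (0.0291), on the side where 90% of features did. Turned, Actb passed at 0.38 (limma, adjusted p = 7.1e-05) and Hprt1 did not, at 0.046 (0.293).

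**Figure D5:**
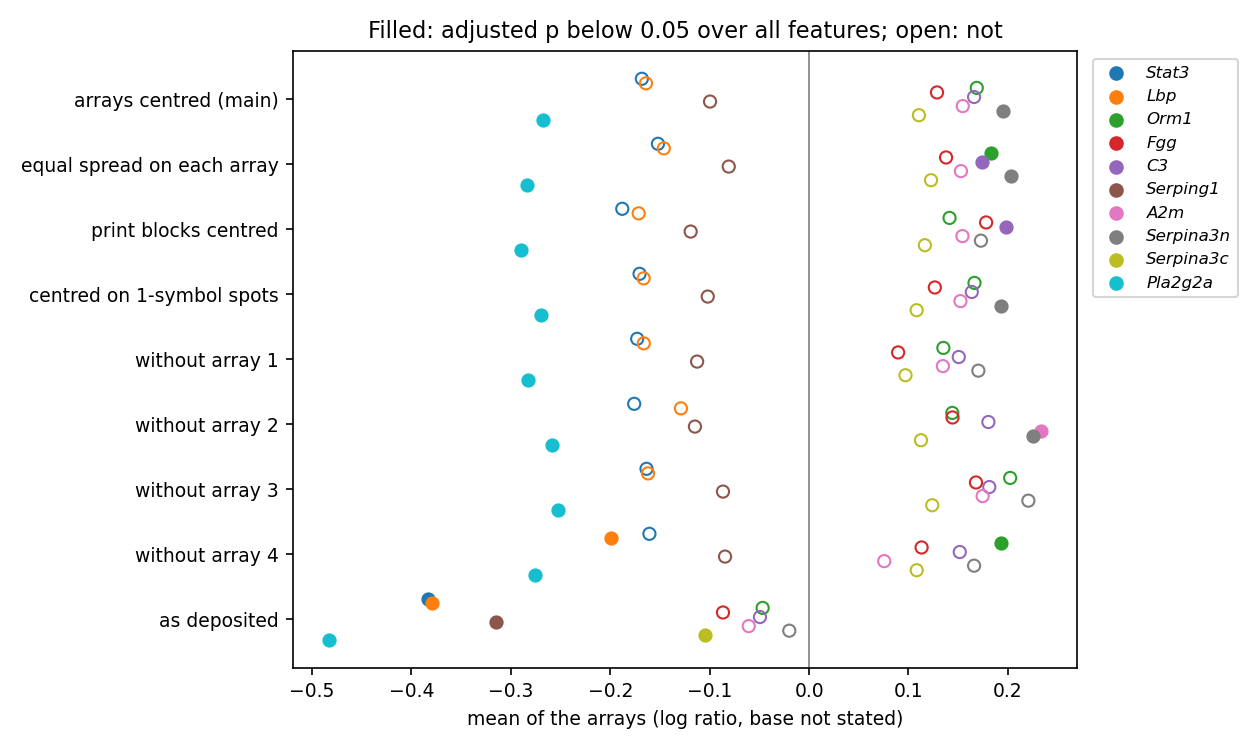
Mean of the arrays (log ratio, base not stated) for Stat3 and the 9 acute phase genes under 9 settings of the main reading; filled points passed an adjusted p of 0.05 over all features in limma, open points did not. Pla2g2a is filled in each setting shown, and as deposited all 10 genes lie below 0. Without array 2 or 4 the filling rests on the same SE for all 10 genes, 0.063.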

How the data were processed

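The authors deposited 1 log ratio per spot for each of the 4 arrays. Its base, direction and normalization were not given in the sources used here, nor were the scanner and the background correction. The spots form 16 blocks, and 288 spots at positions with no annotated gene in any block were taken as control spots and left out. Of 1648 gene spots, 1432 had 1 symbol in the platform annotation, and 1429 of these matched RefSeq by Entrez identifier, with 0 symbols changed. Spots of a symbol were averaged, giving 958 named genes and 216 unnamed spots. There were 0 missing values. Arrays were centred on the gene-spot median and fitted in limma 3.58.1 (R 4.3.3), with a mean and a dye effect per feature, eBayes, with 2-sided p-values adjusted by Benjamini-Hochberg across 1174 features and 2 residual degrees of freedom. The fit was tested on simulated data with known changes. Precision is limited by having 4 arrays.

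The genes and lists were chosen with earlier results of these data known. Named beside the 10 genes were, per list, up to 4 called genes a side or else the largest, the largest marker per cell type, Hprt1, Actb, and the 3 genes nearest to Stat3 and to Serpina3n. Those named for a role (Il6r, Il6st, Jak2, Tnf, Irf1, Crp and Serpina1) and the marker Uox were added after their values were seen. Alternatives were values as deposited, no dye effect, arrays 2 and 4 turned, equal spread (by median absolute deviation), print blocks centred, centring on spots with 1 symbol, each spot on its own, robust eBayes, a variance trend and each array left out. Turning with values as deposited was chosen after seeing the data. With 1 array left out, 1 orientation is held by a single array. Without array 2 or 4 the SE was then the same for all 10 genes, 0.063, so a pass there does not rest on a gene's own spread. A filter on dim spots could not be made, as brightness is not in the values.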

Additional observations from a re-analysis of the deposited data

How the results depend on the processing

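Main counts were 19 positive and 27 negative calls over all features, and 2 of the 10 genes. As deposited these were 4, 1057 and 5, with no dye effect 0, 0 and 0, with arrays 2 and 4 turned 477, 538 and 9, and with both turning and values as deposited 33, 917 and 8. Equal spread gave 29 positive calls and 4 of the 10 genes, and each spot on its own 43 positive and 44 negative calls. Leaving out 1 array gave 11 (without array 3) to 47 (without array 2) positive calls, 17 (without array 3) to 39 (without array 2) negative calls, and 1 to 3 of the 10 genes, with 1 without array 1 and without array 3. The cause of these moves was not tested, beyond the shift of 0 that the deposited values carry. The turned mean is by its arithmetic the dye effect of the main fit. With no dye effect the SE of Stat3 was 0.26, against 0.039 in the main fit. Without array 2 or 4 all 10 genes had the same SE, 0.063. In the remaining settings the counts stayed within 1.5 times.

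Sides turned in these cases. As deposited, Orm1 was at -0.047, C3 at -0.049, A2m at -0.061, Fgg at -0.087, Serpina3n at -0.020, Serpina3c at -0.10, Tf at -0.028, Pf4 at -0.21 and Actb at -0.15. With arrays 2 and 4 turned, Stat3 was at 0.54, Lbp at 0.67, Serping1 at 0.60, Mt1 at 0.52, Cp at 0.53, Vtn at 0.58, Fcgr2b at 0.25, Pf4 at -0.53 and Hprt1 at 0.046. With both, Stat3 was at 0.012, Lbp at 0.14, Serping1 at 0.077, Orm1 at -0.12, C3 at -0.26, A2m at -0.48, Fgg at -0.22, Serpina3n at -0.23, Serpina3c at -0.13, Cp at 0.010, Ttr at -0.15, Tf at -0.14, Vtn at 0.060, Pf4 at -1.06 and Actb at -0.14. Pf4 also turned with equal spread (-0.0071) and without array 4 (-0.0089; up to 0.029 without array 2), Hprt1 with print blocks centred (0.013) and in its second spot (0.0048), and Actb with print blocks centred (-0.022). In the settings that kept the main reading and the centring, none of the 10 genes turned.

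No paired analysis was possible because the arrays form 1 group and share no replicate numbers with another. The 4 arrays compare 1 mixed RNA of each treatment, so the spread between rats is not in any error given. How far each spot stood above background is not known.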
